A study of Mus musculus with 8 samples.

Results

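Sprr1a and Lce1g encode structural proteins of the cornified envelope, the cross-linked protein shell of dead skin cells, and were examined here in mouse lumbar dorsal root ganglia after nerve injury. They are 2 of the 24033 gene symbols in the count table and were picked by symbol because the injury against naive contrast had already shown large rises for both. Their levels in that contrast are therefore given as a description, with no test. The injury group is 4 libraries of L4 to L6 ganglia taken 24 h after a crush of the sciatic nerve, and the naive group is 4 libraries of the ganglia of the opposite, uncrushed side. Each repeat pooled ganglia of 2 mice, so that the naive ganglia come from animals that had also been operated on. Strain, sex and age are not given in the labels, and both groups are labelled as dissociated ganglia. RNA was read by 3′-end sequencing (QuantSeq REV), in which 1 fragment per transcript end is counted and transcript length has little part.

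Dorsal root ganglia hold the cell bodies of sensory neurons, with satellite glia and Schwann cells around them. In the epidermis, small proline-rich proteins (the Sprr family) and late cornified envelope proteins (the Lce family) are made late in keratinocyte differentiation and joined to other envelope proteins by transglutaminases. Their genes lie side by side in the epidermal differentiation complex. Outside skin, Sprr1a is known as a regeneration-associated gene: it is scarce in intact sensory neurons, is made after axotomy, and its protein reaches growing axons. Lce1g is known as a gene of the late epidermal barrier.

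Both genes lie on the minus strand of chromosome 3 on GRCm38 with starts 266.4 kb apart. Sprr1a (92483952 to 92485895) has 2 exons, a 46-base first exon that is all 5′ UTR and a last exon that holds the whole reading frame of 144 codons and the 3′ UTR. Lce1g (92750148 to 92752338) has the same layout, with a 51-base first exon and 139 codons. No other GENCODE gene overlaps either of them on either strand, 0 for each. To show how the start regions of the induced genes compare with those of close relatives, the 250 bases before the RefSeq start of Sprr1a, its relative Sprr1b, Lce1g and its relative Lce1e are printed 5′ to 3′ (RefSeq, GRCm38.p6). RefSeq places the start of Sprr1a 14 bases and that of Sprr1b 10 bases inside the GENCODE first exon, so that these windows end within it, while both Lce starts are the same in RefSeq and GENCODE. Capitals mark TGANTCA, the site that AP-1 factors such as Jun bind, and TATAAA, the TATA box.
Sprr1a, chr3:92485882-92486131, minus strand: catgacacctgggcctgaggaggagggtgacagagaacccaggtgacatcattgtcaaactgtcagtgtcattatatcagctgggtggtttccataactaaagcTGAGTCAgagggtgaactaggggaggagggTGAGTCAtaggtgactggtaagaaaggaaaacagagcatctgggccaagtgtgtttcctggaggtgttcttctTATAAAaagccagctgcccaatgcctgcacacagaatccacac
Sprr1b, chr3:92438780-92439029, minus strand: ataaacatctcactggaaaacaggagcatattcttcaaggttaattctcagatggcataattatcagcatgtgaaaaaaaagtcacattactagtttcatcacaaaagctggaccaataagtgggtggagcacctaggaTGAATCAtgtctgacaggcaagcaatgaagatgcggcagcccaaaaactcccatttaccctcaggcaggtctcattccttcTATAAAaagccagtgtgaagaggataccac
Lce1g, chr3:92752339-92752588, minus strand: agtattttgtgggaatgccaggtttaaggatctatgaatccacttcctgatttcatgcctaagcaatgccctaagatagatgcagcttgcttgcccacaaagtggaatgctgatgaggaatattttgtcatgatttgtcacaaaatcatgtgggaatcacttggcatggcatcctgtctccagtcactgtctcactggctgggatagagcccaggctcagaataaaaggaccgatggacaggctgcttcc
Lce1e, chr3:92709075-92709324, minus strand: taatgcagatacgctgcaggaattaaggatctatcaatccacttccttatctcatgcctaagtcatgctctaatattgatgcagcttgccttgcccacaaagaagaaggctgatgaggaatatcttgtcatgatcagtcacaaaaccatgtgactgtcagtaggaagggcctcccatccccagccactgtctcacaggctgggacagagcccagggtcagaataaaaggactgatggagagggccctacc

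The Sprr1a window held 2 TGANTCA matches, beginning 146 and 116 bases before the RefSeq start, and a TATA box 43 bases before it. TGANTCA is its own reverse complement, so both strands give the same matches, and it does not overlap TATAAA. Of 32851 mouse promoter windows of this length, 6.75% held TGANTCA at least 1 time and 0.338% held it 2 or more times; 12.4% held TATAAA on either strand. The Sprr1b window held 1 match at 111 bases and a TATA box at 30 bases. The Lce1g and Lce1e windows held neither motif, which says only that these letters are not in the window. The full CRE sequence TGACGTCA, present in 1.55% of windows, was in none of the 4. Aligned end to end, the Lce1g window was 79.5% identical to that of Lce1e, 84.5% to that of Lce1h and 85.6% to that of Lce1i, and Lce1h and Lce1i had no count in any library. The Sprr1a and Sprr1b windows were 55.9% identical.

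Library totals ran from 15422482 to 29368107 counts, and a count of 0 allows a level of up to 0.102 to 0.195 CPM (3 counts per library; counting error only). Naive replicate 1, the shallowest library, stood apart on the second principal component (46.6, against -21.1 to 11.3 in the others, 16.6% of the variance). Neuronal identity was clear in every library: 8 neuron markers such as Tubb3, Prph and Calca summed to 13649 to 15076 CPM in naive and 13933 to 16343 CPM in injury libraries. In bulk RNA of ganglia, fewer cells of a type and less RNA per cell cannot be told apart. By edgeR's quasi-likelihood test, 12.6% of 13639 genes tested changed at an adjusted p under 0.05, 8.12% higher and 4.47% lower. Rises made up 64.5% of the calls, or 47.0% when library totals replaced TMM scaling (1108 higher and 609 lower genes against 888 and 1001).

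Sprr1a was near the detection limit on the naive side and plain on the injured side. In order of replicate number, the naive libraries held 6, 10, 4 and 11 counts and the injury libraries 344, 924, 560 and 750. As TMM-scaled CPM these were 0.376, 0.455, 0.179 and 0.370 on the naive side and 15.2, 43.0, 28.8 and 45.4 on the injured side. The lowest injury library was thus far above the highest naive library, and every naive library still held some counts. The means were 0.345 ± 0.118 and 33.1 ± 14.01 CPM (SD, n = 4), a fitted log2 fold change of 6.56. From the summed counts, 31 against 2578, the depth-scaled ratio was 90.4 (exact 95% interval for counting error 63.5 to 133). Leaving out any library kept that ratio between 77.9 and 108.

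Lce1g had almost no reads on the naive side. In the same order, the naive libraries held 6, 1, 0 and 2 counts and the injury libraries 158, 275, 155 and 214. On the CPM scale the naive libraries stood at 0.376, 0.0455, 0 and 0.0673 and the injury libraries at 6.99, 12.8, 7.96 and 12.96. The groups did not overlap, as in 9.8% of all tested genes with injury above naive, a share from which nothing is read for genes chosen on this contrast. The means were 0.122 ± 0.172 and 10.2 ± 3.15 CPM (SD, n = 4), with a fitted log2 fold change of 6.55. The summed counts, 9 against 802, gave a depth-scaled ratio of 96.85 (exact 95% interval 50.8 to 213, counting error only). The size of this ratio rests on naive replicate 1, which held 6 of the 9 naive counts: without it the ratio was 239.9 (interval 81.8 to 1166), and the fitted log2 fold change 7.79. With a prior count of 2 the fitted log2 fold change was 5.69.

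**Figure D1:**
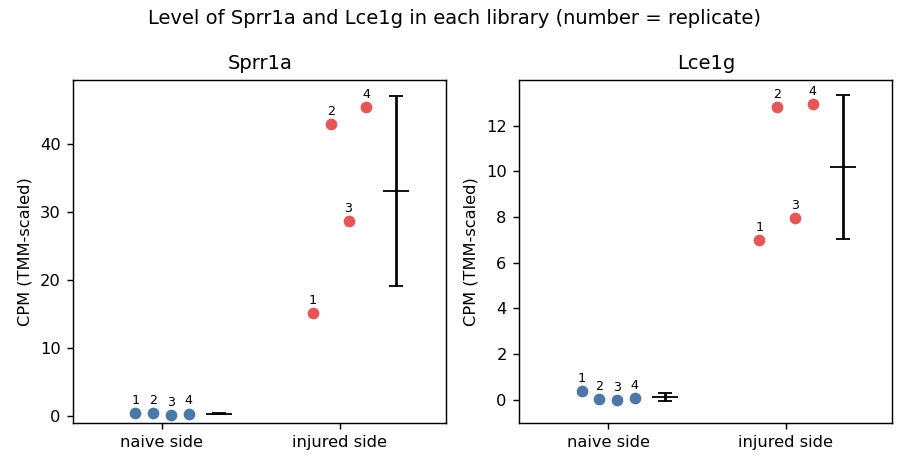
Level of Sprr1a (left) and Lce1g (right) in TMM-scaled CPM in each library, with replicate numbers above the points and the mean ± SD of 4 libraries as black bars. Sprr1a spans 15.2 to 45.4 CPM and Lce1g 6.99 to 12.96 CPM on the injured side, and both stay under 0.5 CPM on the naive side.

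By fitted log2 fold change Sprr1a and Lce1g ranked 4 and 5 among the 13639 tested genes. The genes ahead of them, Krt6a, Abra and 2010005H15Rik, had no naive count at all and no more than 2.50 CPM after injury, so that their fitted values depend on the prior count. Restricted to the 10113 genes whose mean reached 5 CPM, Sprr1a and Lce1g ranked 1 and 2. Both reached that mean only through their injury libraries, and the cut left out the genes ahead of them. Since both were picked for this rise, the ranks are a description and nothing is read from them. The injured-side level of Sprr1a ranked 5071 among all 24033 symbols and that of Lce1g ranked 8462. Atf3 and Sox11, the axotomy-induced transcription factors, reached 321 and 352 CPM with fitted log2 fold changes of 2.45 and 2.83.

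**Figure D2:**
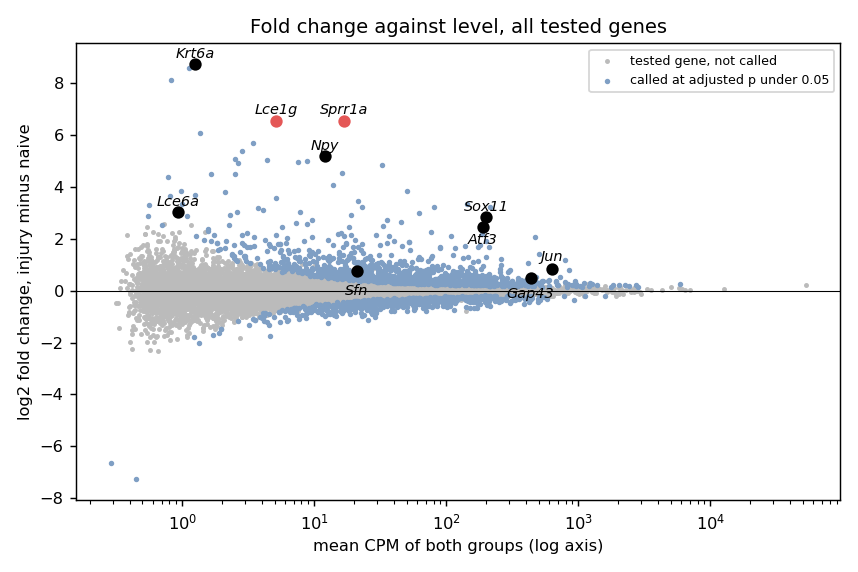
Log2 fold change (injury minus naive) against the mean CPM of both groups on a log axis for all 13639 tested genes. Called genes are blue, Sprr1a and Lce1g are red at 6.56 and 6.55, and comparison genes are black, with Krt6a at 8.73.

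The injury libraries spread widely for both genes. The SD of Sprr1a was 42.3% of its injury mean, where counting alone would give 3.94%, and the highest library held 2.98 times the lowest. For Lce1g the SD was 30.9% of the mean, with 7.06% from counting, and the highest library held 1.85 times the lowest. For comparison, in Atf3 and Jun the SD was 10.6% and 6.55% of the mean. Injury replicate 1 was the lowest library for both genes, at 0.460 of the injury mean for Sprr1a and 0.687 for Lce1g. The same library held 0.452 of the mean of Gal, the galanin gene, and 0.420 of the mean of Npy, the neuropeptide Y gene. It held 0.864 of the mean of Atf3, 0.911 of the mean of Jun and 0.887 of the mean of Gap43. Sox11 lay between, at 0.743 of its mean. The part of that library in these results was not tested beyond leaving it out, which gave a Sprr1a log2 fold change of 6.80.

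Replicates 2 and 4 held the highest levels of both Sprr1a and Lce1g. Sprr1a counts were 2.18 times those of Lce1g in injury replicate 1 and 3.36, 3.61 and 3.50 times in replicates 2 to 4. These are ratios of counts within a library and not of molecules, since the capture of each transcript end is not known. The ratio was thus close in 3 injury libraries and lower in injury replicate 1, where Sprr1a was low by more than Lce1g.

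**Figure D3:**
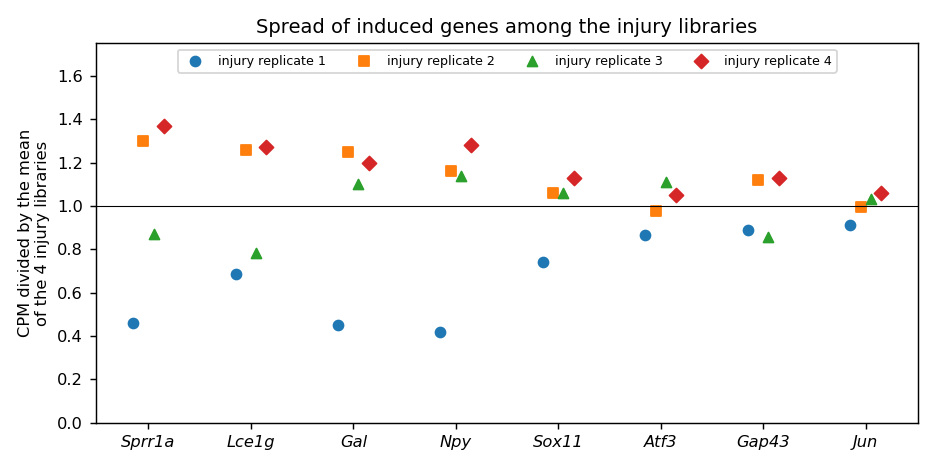
CPM of each gene in the 4 injury libraries, divided by the mean of those libraries. Injury replicate 1 lies at 0.460 for Sprr1a, 0.452 for Gal and 0.420 for Npy, while all libraries lie between 0.864 and 1.11 for Atf3.

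Across the 8 libraries the log2 CPM of Sprr1a and Lce1g had a Pearson r of 0.982, a value set largely by the distance between the groups. It is a description: 5.89% of tested genes had an r beyond 0.9 in either direction with Sprr1a and 4.97% with Lce1g. Over the 9807 genes whose mean reached 5 CPM, the 10 nearest to Sprr1a had an r of 0.995 to 0.998. Among them were Star, which carries cholesterol into mitochondria, the laminin receptor subunit gene Itga7, the ETS factor gene Etv5, the protein C receptor gene Procr, the neurotrophin gene Bdnf, Sox11, Rgs20, Kif22 and the metalloprotease gene Adam8. Star, the nearest, stood at 1.54 ± 0.464 CPM on the naive side and 26.3 ± 6.89 CPM on the injured side (SD, n = 4). The 10 nearest to Lce1g had an r of 0.989 to 0.994 and were Sox9, Cdkn1a, Mapkbp1, Tmem88b, Procr, Smad1, Pde1c, Galc, Rnf122 and Ugdh. Sox9, a SRY-box factor gene, stood at 4.51 ± 1.27 and 41.8 ± 9.84 CPM. Procr was on both lists, at 6.64 ± 1.53 and 93.7 ± 19.2 CPM.

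The other 34 Sprr and Lce rows were mostly silent. Of 14 further Sprr rows, 12 had no count in any library, among them Sprr1b and the chromosomal neighbours of Sprr1a, Sprr3 and Sprr4. The other two, Sprr2g and Sprr2j-ps, held 5 counts in injury replicate 2 and 6 counts in injury replicate 4, and 0 elsewhere. Sprr2a1 and Sprr2a2 were listed at 0, but all of the 251 windows of 50 bases in their transcript ends recur in other genes, so that reads from them may not have been assigned. Of 20 further Lce rows, 13 had no count.

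The Lce rows that were counted had more reads on the injured side. Lce6a, a late cornified envelope gene between Sprr1a and Lce1g, held 8, 0, 3 and 6 counts in the naive libraries and 18, 27, 41 and 41 in the injury libraries. The groups did not overlap, with 0.209 ± 0.212 and 1.66 ± 0.771 CPM (SD, n = 4). It was the single row of the 34 that passed the filter on low counts, and passed it through its injury libraries, so that its fitted log2 fold change of 3.02 is given with no test. The depth-scaled ratio of its summed counts was 8.12 (interval 4.88 to 14.4, counting error only). Lce1e held 5, 12, 11 and 16 counts in injury replicates 1 to 4 and none in any naive library, at least 15.9-fold higher against a floor of 3 counts over the naive group. Lce1f held 0, 20, 10 and 9 counts in the injury libraries and none on the naive side, at least 14.1-fold higher. Lce1c held 0, 0, 4 and 10 counts in the injury libraries and also none on the naive side. Lce1b, Lce1a2 and Lce1j held 4, 6 and 4 counts in all, each on the injured side.

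Summed over all Lce1 rows other than Lce1g, the injury replicates held 5, 32, 34 and 40 counts and every naive library held 0. Injury replicate 1 was again the lowest.

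Lce1 genes share coding sequence, and for that reason the transcript ends were compared. Of the 876 windows of 50 bases in the Lce1g transcript, 161 (18.4%) occur in the transcript of another gene, but none of the 251 windows in its last 300 bases does. The last 300 bases of Lce1f also held no shared window, and those of Lce1e held 45 of 251 (17.9%). The shared part was 32.7% in Lce1b, 27.1% in Lce1j, 13.1% in Lce1c and 9.6% in Lce1a2. Neither the Sprr1a nor the Lce6a transcript held any shared window. How reads that match several genes were counted is not given in the sources used here, so that the small counts of Lce1e, Lce1b, Lce1j, Lce1c and Lce1a2, and the sum over the Lce1 rows, are uncertain.

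The neighbourhood was examined next, since both genes sit in a dense cluster. Of 53 protein-coding genes with a start within 500 kb of either gene, 48 were in the table. Leaving out Sprr1a and Lce1g, 33 of 46 had no count in any library. Of the 13 with counts, 12 had a higher mean CPM after injury, where 49.8% of all 17311 rows with a count did. Most of the 13 had counts only on the injured side and could only come out higher, some with as few as 4 counts. Nothing is read from this share. Prr9, a proline-rich gene of the cluster, held 32 counts on the injured side and none on the naive side. Crct1, a cysteine-rich gene, was the row that had fewer, 8 against 15. All but Lce6a were too low to pass the filter. Ivl, the involucrin gene, which lies 87.8 kb from Sprr1a, was listed at 0 in all 8 libraries.

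**Figure D4:**
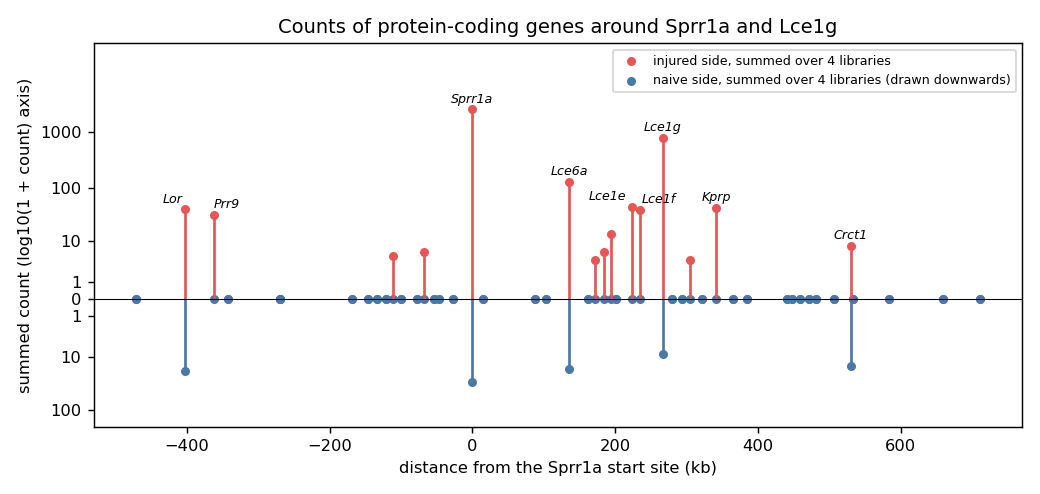
Summed counts of the protein-coding genes within 500 kb of Sprr1a or Lce1g that are in the table, by distance from the Sprr1a start, with the injured side drawn upwards and the naive side downwards on a log10(1 + count) axis. Sprr1a (2578 counts) and Lce1g (802 counts) stand among silent neighbours, with Lce6a at 127 and Lce1e, Lce1f, Kprp, Lor and Prr9 between 32 and 44 on the injured side.

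The other structural genes of the envelope were mostly silent. Of 14 structural envelope genes, 13 were in the table and 9 of those had no count, including the filaggrin relative genes Flg2 and Hrnr. Tchh, the trichohyalin gene, was the one member tested and was not called by edgeR (0.149 ± 0.241 and 0.942 ± 0.612 CPM, edgeR adjusted p = 0.0917), and DESeq2 gave it no adjusted p. It was called by limma-voom (adjusted p = 0.0452). Without naive replicate 4, which held most of its naive counts, its fitted log2 fold change was 4.62. In that setting Tchh passed the filter on low counts only through its injury libraries, and no test is given. Lor, the loricrin gene, held 19 counts on the naive side and 40 on the injured side. Kprp, a keratinocyte proline-rich protein gene, held 16, 8, 10 and 8 counts in injury replicates 1 to 4 and none in any naive library, at least 15.2-fold higher.

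Genes that assemble the envelope were mostly too low to test. Tgm1, the keratinocyte transglutaminase gene, was listed at 0 in all libraries. Of 14 assembly genes 3 were tested. edgeR called 0 of these and DESeq2 also 0, while 1 had an unadjusted edgeR p under 0.05. That member was Jup, the plakoglobin gene, which many tissues use, with 193 ± 15.1 and 218 ± 5.82 CPM (edgeR adjusted p = 0.0656). It was called higher without naive replicate 1 (adjusted p = 0.0289) by limma-voom (adjusted p = 0.0493) and with the replicate number as a block (adjusted p = 0.0378). The other tested members, Evpl and Ppl, whose products are the plakins envoplakin and periplakin, had log2 fold changes of -0.33 and -0.73 (edgeR adjusted p = 0.811 and 0.610). Among the untested rows, Alox12b, a lipoxygenase gene of the skin barrier, held 2, 3, 0 and 10 counts on the naive side and 9, 17, 48 and 10 on the injured side, and its CPM did not overlap between the groups. Csta1, a cystatin gene, held 0 and 17 counts in all on the naive and injured sides, and the transglutaminase gene Tgm5 held 22 and 53.

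Among the keratins that skin makes on wounding, Krt6a and Krt16 had counts on the injured side, Krt6b had none in any library and Krt17 had 2 in injury replicate 1. Krt6a, a keratin of wounded and hyperproliferative epidermis, held no count in any naive library and 39, 62, 67 and 32 counts in the injury libraries, or 1.73, 2.89, 3.44 and 1.94 CPM. It was at least 72.5-fold higher against the naive floor of 3 counts over the group. It passed the filter on low counts only through its injury libraries, and no test is given for it. Krt16, its usual partner in epidermis, held 1, 22, 2 and 15 counts in the injury libraries and none on the naive side. Its summed counts were at least 14.5-fold higher against the same floor, with no error on the injury counts. Replicates 2 and 4 carried nearly all of these. A count of 0 in every naive library with counts in every injury library was found for 0.112% of all symbols (27 of 24033). Krt6a, Krt16, Kprp and Lce1e were among these 27, and the opposite pattern was found for 0.0374%.

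Of 21 keratinocyte markers, 7 passed the filter on low counts and 2 of these were called higher, Sfn and Krt6a, where 8.12% of all tested genes were; with Krt6a in the list for the reason just given, the count is a description. Krt5, the main keratin of basal keratinocytes, was listed at 0 in all 8 libraries, as were Krt6b, Dsc3 and Calml3. Krt14, the partner of Krt5, held 0, 1, 12 and 10 counts on the naive side and 2, 8, 8 and 1 on the injured side, so that the groups overlapped. A few markers held counts only on the injured side, each with at least 1 injury library at 0: Epcam held 13, 0, 3 and 7, Krtdap 8, 2, 3 and 0, Dsg3 1, 0, 8 and 0, and Col17a1 0, 0, 0 and 9. Krt1 and Krt10, keratins of the upper epidermis, stood at 0.477 ± 0.128 and 0.677 ± 0.316 CPM and at 8.39 ± 1.56 and 7.94 ± 0.870 CPM (edgeR adjusted p = 0.736 and 0.868). Sfn, which encodes the 14-3-3 protein sigma and is also a p53 target, rose from 15.7 ± 1.70 to 26.4 ± 5.47 CPM (edgeR adjusted p = 0.000796).

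Summed over all keratinocyte markers the libraries held 591 to 691 CPM on the naive side and 568 to 634 CPM on the injured side. Cdh1, the E-cadherin gene, made up most of that sum (617 ± 49.4 and 557 ± 32.05 CPM). Leaving out Cdh1, a choice made after its values were seen, the sum was 30.1 to 34.9 CPM on the naive side and 42.5 to 53.9 CPM on the injured side, of which Sfn was the largest part. These sums do not overlap between the groups; their part in the Sprr1a and Lce1g values was not tested.

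**Figure D5:**
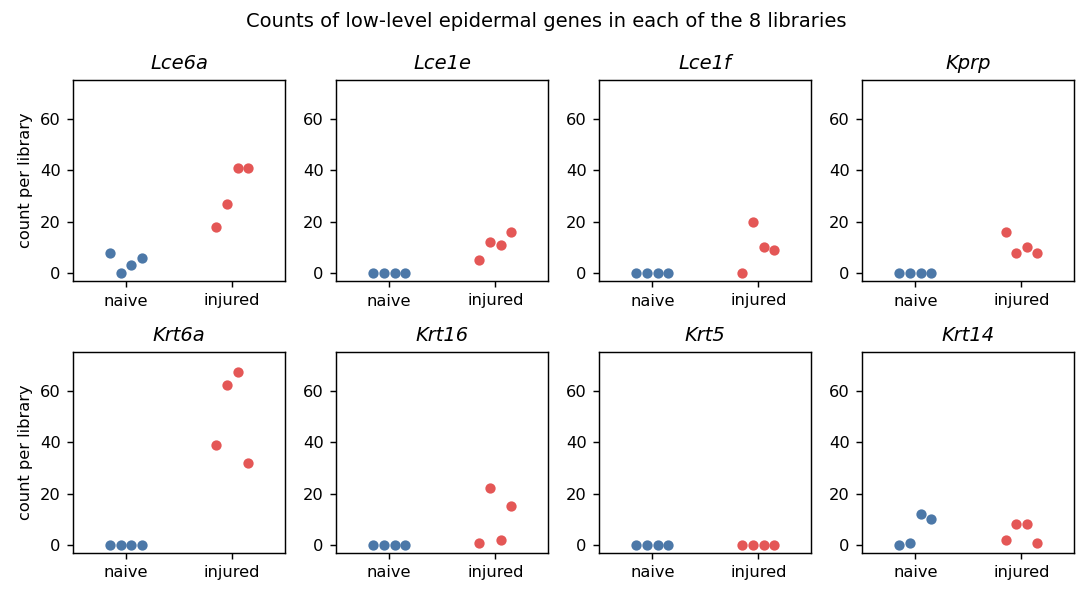
Counts per library of 8 low-level epidermal genes, 4 naive libraries in blue and 4 injury libraries in red on a shared linear axis. Lce1e, Lce1f, Kprp, Krt6a and Krt16 are at 0 in every naive library, Krt6a reaches 67 on the injured side, Krt5 is at 0 throughout and Krt14 overlaps between the groups.

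Transcription factors with roles in the epidermis changed in part, and whether they act on Sprr1a or Lce1g was not tested. Of 17 factors listed, 12 were tested, 5 rose and 0 fell, a share to be read against 8.12% higher over all tested genes; the list holds Jun and Atf3, known axotomy genes, and its median log2 fold change was 0.14. Jun, a component of AP-1, stood at 473, 450, 467 and 409 CPM in the naive libraries and at 739, 807, 836 and 862 CPM in the injury libraries (edgeR adjusted p = 2.03e-10). Atf3 rose from 58.8 ± 11.7 to 321 ± 34.2 CPM (adjusted p = 3.37e-07) and Fosl2, another AP-1 partner, from 41.7 ± 4.93 to 62.6 ± 5.54 CPM (adjusted p = 0.000153). In injury replicate 1, Jun stood at 0.911, Atf3 at 0.864 and Sprr1a at 0.460 of their injury means, each the lowest of the 4 libraries. A link between these levels was not tested.

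Klf4, a factor of epidermal barrier formation, rose from 48.8 ± 4.12 to 64.6 ± 9.11 CPM (edgeR adjusted p = 0.00642). Leaving out injury replicate 3 ended that call (adjusted p = 0.0523). Jund rose from 174 ± 12.5 to 205 ± 6.85 CPM (adjusted p = 0.0159). That call ended on leaving out injury replicate 4 (adjusted p = 0.0671) and on scaling by library totals (adjusted p = 0.0588). Fosl1, an AP-1 member of low level, had 18, 8, 0 and 0 counts on the naive side and 48, 54, 45 and 15 on the injured side. It passed the filter on low counts through its injury libraries, so that its fitted log2 fold change of 2.51 is given with no test. Without naive replicate 1 that fitted value was 4.05. Trp63, the master factor of stratified epithelium, held 2 to 19 counts in every library, and its groups overlapped. Grhl3, a barrier factor, stood at 4.28 ± 0.848 and 2.86 ± 1.32 CPM (adjusted p = 0.306).

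S100 genes, calcium-binding protein genes that flank the complex on the same chromosome, ranged from silent to abundant. S100a7a was listed at 0, and S100a3, S100a5 and S100a14 stayed under 0.5 CPM on average in both groups. On the naive and injured sides S100a3 held 20 and 28 counts in all, S100a5 30 and 5, and S100a14 29 and 3. Of 13, 9 were tested, 2 rose and 0 fell, against 8.12% higher over all tested genes, with a median log2 fold change of 0.16. S100a10, the partner of annexin A2, rose from 697 ± 13.4 to 885 ± 60.4 CPM (edgeR adjusted p = 6.03e-05). S100a11 stood at 33.4, 52.3, 51.4 and 61.5 CPM in the naive libraries and at 66.0, 83.2, 99.0 and 88.8 CPM in the injury libraries (adjusted p = 0.0174). Its groups did not overlap, yet leaving out injury replicate 4 ended the call (adjusted p = 0.0524), as did testing every row unfiltered (adjusted p = 0.0634). S100a8 and S100a9, genes of neutrophils, stood at 125 ± 66.7 and 96.6 ± 28.0 CPM and at 103 ± 62.8 and 84.2 ± 24.4 CPM (adjusted p = 0.693 and 0.792).

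Markers of the cell types of the ganglion were read beside these genes, against 8.12% of all tested genes higher and 4.47% lower. Of 8 neuron markers 0 rose and 1 fell, Isl1, from 120 ± 5.12 to 92.6 ± 11.04 CPM (edgeR adjusted p = 0.00212). Of 5 satellite glial markers 1 rose, Glul, from 290 ± 16.3 to 408 ± 7.59 CPM (adjusted p = 6.37e-07). Of the 5 Schwann cell, 5 tested macrophage and 4 endothelial markers edgeR, DESeq2 and limma-voom each called 0, and 0, 2 and 0 had an unadjusted edgeR p below 0.05. Of 5 fibroblast markers 1 rose, Pdgfra (adjusted p = 0.0287); leaving out naive replicate 2 or 3, or any of injury replicates 2 to 4, ended the call (adjusted p 0.0595 to 0.0750). Which cells made the Sprr1a and Lce1g transcripts cannot be read from bulk RNA.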

How the data were processed

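RNA of 8 libraries (4 injury, 4 naive) was sequenced from transcript 3′ ends. The deposited table holds raw counts per gene symbol, not normalised; the submitters' processing notes list bcl2fastq 2.17, STAR, HTSeq and the assembly GRCm38 (mm10). Annotation and strand setting: not given in the sources used here. Of 24060 rows, 27 carried a calendar date in place of a symbol (0.146% to 0.158% of counts) and were left out. Groups follow the titles. Each repeat came from 2 mice, and p-values measure only the spread between these libraries. Within groups, library pairs differed by more than sampling noise (chi-square over its degrees of freedom 8.09 to 19.2).

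Counts were tested with edgeR 4.0.16 (R 4.3.3): filterByExpr, TMM, robust quasi-likelihood F-test without a block, Benjamini-Hochberg over 13639 genes, threshold 0.05. CPM are TMM-scaled; depth-scaled ratios of summed counts use library totals, with exact 95% intervals for counting error alone; the labels name no molecular identifiers, and reads may not be independent molecules. Standard errors are the log2 fold change over the square root of F. On simulated counts for this comparison (13451 genes), 86% of 4-fold and 47% of 1.5-fold changes were recovered, and 6.99% of calls were false. Other settings tried were library totals, DESeq2 size factors, no filter or a 5 CPM minimum mean, a prior count of 2, a replicate block, each library left out, limma-voom (limma 3.58.1) and DESeq2 1.42.0. Positions and transcript ends come from GENCODE M21 (GRCm38); promoters from RefSeq; alignments used Biopython 1.88.

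Sprr1a, Lce1g and all gene lists were chosen with earlier results of these data known. Named genes are the list members called, otherwise the most abundant ones, all Sprr and Lce rows with counts, chromosomal neighbours and the 10 nearest by correlation (log2 CPM, prior count of 2, passing over Gm-number and Rik symbols). Krt16, Krt5, Krt14, Kprp, Tgm1, Lor, Trp63, Fosl1, Flg2, Hrnr, Ivl, Prr9, Crct1, Krt6b, Krt17, Epcam, Krtdap, Dsg3, Col17a1, Dsc3, Calml3, Alox12b, Csta1, Tgm5, S100a3, S100a5, S100a7a, S100a14, Abra and 2010005H15Rik fall outside that rule in whole or part and were named after their values were seen. Of the 10 genes nearest to Sprr1a, 1 is not reported here.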

Additional observations from a re-analysis of the deposited data

Results flagged for a closer look

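Of 142 groups of 4 libraries checked (71 tested genes of the lists and families above), 8 had a library far from the other three by Dixon's test at its 95% critical value; chance flags about 1 in 20 groups. None was a group of Sprr1a or Lce1g. Npy in injury replicate 1 stood at 9.87 CPM, with the next library at 26.9 CPM, which is the library that is also lowest in Sprr1a, Lce1g and Gal. Fos in injury replicate 3 stood at 311 CPM with the next at 240 CPM, and Jund in injury replicate 4 at 215 CPM with the next at 202 CPM. Grhl1 in injury replicate 2 stood at 3.72 CPM with the next at 0.976 CPM. Nefh in injury replicate 4 stood at 3090 CPM with the next at 2660 CPM, and S100a6 in injury replicate 3 at 2230 CPM with the next at 2060 CPM. On the naive side, Isl1 in replicate 2 stood at 113 CPM with the next at 122 CPM, and Tubb3 in replicate 2 at 5310 CPM with the next at 4690 CPM.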

How the results depend on the processing

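The Sprr1a log2 fold change stayed within 1 SD of its libraries under all 16 alternatives (6.24 to 6.80; 6.34 to 6.80 with 1 library left out). That of Lce1g moved by more with a prior count of 2 (5.69) and without naive replicate 1 (6.14 to 7.79 over the libraries left out), where the remaining naive counts were 3. Genes called lower numbered 1001 with library totals against 609. Over the envelope, assembly and keratinocyte lists, 2 genes were called, Krt6a and Sfn, beside 8.12% called higher over all tested genes. Krt6a passed the filter only through its injury libraries, so that the number is a description. It was 4 with no low-count filter, which added Kprp and Krt16, both at 0 in every naive library. It was 4 with limma-voom, 1 under a 5 CPM minimum mean, and 2 to 5 with 1 library left out. Of the 34 other Sprr and Lce rows 1 was called, Lce6a, against 3 with no filter, which added Lce1e and Lce1f. The number was 0 under a 5 CPM minimum mean, where fewer genes were tested, and 0 to 3 with 1 library left out. The lowest was without injury replicate 4. These rows entered the testing through their injured-side counts. Their numbers are thus descriptions, beside 8.12% called higher over all tested genes. The cause of the remaining moves was not tested.

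Replicate numbers are shared between the groups, but same-numbered libraries deviated together only weakly (r 0.0352 to 0.0569) and not every library correlated best with its own number. With the replicate block 1245 genes were called higher and 779 lower. Of the genes named with a test, the block changed the call of Jup. Injured and naive ganglia came from 2 mice per repeat, but no label ties a number to the same mice. Depth limits all rows under about 10 counts per library, where a naive 0 may be a low level.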

Other observations

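Besides Krt6a, Krt16, Kprp and Lce1e, the rows with no count on the naive side and counts in all 4 injury libraries were led by Fgf15 (196 counts), Abra (185), 2010005H15Rik (128) and Phox2a (80). Fgf15 encodes a secreted fibroblast growth factor and Phox2a a homeobox factor of autonomic neurons. Lamb3, a laminin chain gene of the epidermal basement membrane, was also among these rows with 19 counts. These genes were chosen after their values were seen and were given no test of their own as a group.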
